A study of Homo sapiens and Mus musculus with 27 samples.

Results

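The comparison described here sets 4T1 cells that overexpressed caMKL1 against 4T1 cells that overexpressed wild-type MKL1, with 3 libraries in each group. 4T1 is a mouse mammary carcinoma line of BALB/c origin that spreads from the mammary gland. The 6 libraries were chosen by their labels alone, out of 27 in the whole series, which also holds LM2 human breast cancer cells with constructs of the same names and LM2 cells grouped by an actin reporter. Per the labels, the caMKL1 libraries come from 4T1 cells treated as caMKL1 OE, and their genotype labels read caMKL1, caMKL2 and caMKL3 over the 3 replicates. The MKL1 libraries come from 4T1 cells of genotype WT treated as WT MKL1 OE. The 3 control libraries of the same experiment, 4T1 cells of genotype WT treated as control, are used to say where each construct lies relative to control levels. The labels give neither the sequence, species or promoter of the constructs nor whether the replicates were separate cultures or clones, so p-values measure the spread between these samples, which may be technical. PolyA RNA was sequenced from both ends with 150 bp reads, and the authors deposited raw pair counts for each gene name. Levels are given below as CPM, the share of a library's counts on a fixed scale, after TMM scaling of library sizes.

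MKL1, also called MRTF-A and encoded by Mrtfa, is a coactivator of the transcription factor SRF. It binds monomeric actin, which holds it in the cytoplasm, and it enters the nucleus when monomers are drawn into filaments. With SRF it drives genes of actin, its binding proteins, the contractile apparatus and cell adhesions, including smooth muscle genes. Ternary complex factors of the Elk family bind SRF in competition with it and pass growth factor signals to immediate early genes. Constitutively active forms of MKL1 are in general built so that actin no longer restrains them, and the labels do not say how this one was made.

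The libraries held 21896459 to 29370432 counts, with 24035537 to 28937918 in the caMKL1 group and 21896459 to 24478047 in the MKL1 group. The 3 libraries of each group lay close together, and principal component 1 of the 500 most variable genes carried 91.9% of the variance. On that axis the caMKL1 libraries lay at 61.2 to 62.2, the MKL1 libraries at -19.3 to -18.2 and the control libraries at -43.1 to -42.9. Component 2 carried 6.03% of the variance and had another order. There the MKL1 libraries lay at 15.2 to 15.8, the caMKL1 libraries at -3.96 to -3.19 and the control libraries at -12.0 to -11.8. The 10 largest genes took 7.55% to 8.25% of counts in caMKL1 libraries, 6.38% to 6.98% in MKL1 libraries and 5.82% to 6.42% in control libraries. The TMM factors were 0.926 to 0.938 with caMKL1, 1.00 to 1.02 with MKL1 and 1.05 to 1.06 in control. Mitochondrially encoded genes took 2.60% to 2.68%, 3.05% to 3.46% and 2.85% to 2.99% of counts in the same order of groups. The part of these shares in the results was not tested.

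The label of a mammary carcinoma line was set against marker genes. All 9 epithelial markers listed for the line were tested, at a summed level of 5648 to 5945 CPM in caMKL1, 3954 to 4026 CPM in MKL1 and 2695 to 2797 CPM in control libraries. Of 12 leukocyte markers 2 passed the filter, and the whole list had a summed level of 58.9 to 67.3 CPM with caMKL1, 25.7 to 29.04 CPM with MKL1 and 13.5 to 14.1 CPM in control. These were Cd68, a lysosomal protein, at 55.6, 62.9 and 63.7 CPM with caMKL1, 19.2, 22.3 and 21.6 CPM with MKL1 and 6.23, 6.20 and 6.33 CPM in control, and Cd14, at 2.89, 2.55 and 2.69 CPM, 6.09, 6.12 and 6.99 CPM and 7.03, 7.29 and 6.52 CPM in the same order. The defining genes Cd3e and Tyrobp had no count, and Ptprc had 1, 5 and 2 counts in the 3 groups. Of 8 endothelial markers 1 passed, Vwf, at 7.07, 6.42 and 7.02 CPM with caMKL1, 1.04, 0.886 and 1.14 CPM with MKL1 and 0.0382, 0.0642 and 0.0377 CPM in control, while Emcn had no count. Of 9 fibroblast markers 5 passed, and the whole list had a summed level of 33.2 to 33.9 CPM with caMKL1, 36.5 to 40.9 CPM with MKL1 and 32.8 to 35.3 CPM in control, and Lum had no count. Of 8 erythroid and adipocyte markers 1 passed, Alas2, and the whole list had a summed level of 0.922 to 1.47 CPM with caMKL1, 0.776 to 1.09 CPM with MKL1 and 0.917 to 1.25 CPM in control, and Hba-a1 had no count. The part of these markers in the results was not tested.

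Mrtfa itself (GRCm38 chr15:81012281-81190757, minus strand) was raised in both construct groups, and more so with the wild-type form. It had 596, 597 and 679 CPM in the 3 caMKL1 libraries, against 2087, 2147 and 2199 CPM in the 3 MKL1 libraries. Control libraries had 41.6, 36.995 and 39.02 CPM, so neither construct group overlapped with control or with the other. The log2 ratio of caMKL1 over MKL1 was -1.78 ± 0.040 (SE of the fit; edgeR quasi-likelihood test with Benjamini-Hochberg adjustment, adjusted p = 2.02e-21). Reads of a construct and of the cell's own gene cannot be told apart in these counts, and proteins were not measured. The form of the construct and the Mrtfa level both differ between the groups, and the design does not separate them: their effects cannot be told apart. Whether the Mrtfa level gives the amount of construct RNA was not tested.

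Srf (chr17:46548329-46556175, minus strand), the DNA-binding partner of MKL1 and itself one of its targets, had the opposite order of the constructs. It had 139, 139.7 and 140.2 CPM with caMKL1, against 78.4, 86.5 and 84.3 CPM with MKL1 and 39.6, 33.7 and 35.6 CPM in control, and the 3 groups did not overlap. Its log2 ratio was 0.75 ± 0.045 (adjusted p = 3.67e-13). Mrtfb, the related coactivator MRTF-B, differed less, with 83.1, 83.7 and 84.8 CPM with caMKL1, 93.2, 90.1 and 97.04 CPM with MKL1 and 79.6, 75.6 and 79.8 CPM in control. Its log2 ratio of caMKL1 over MKL1 was -0.16 (adjusted p = 0.00109).

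Across the transcriptome, 16297 genes passed the filter on low counts. Of these, 5505 (33.8%) were higher and 5353 (32.8%) lower with caMKL1 than with MKL1 at an adjusted p under 0.05. At a change of at least 2-fold the calls were 1809 higher (11.1%) and 1141 lower (7.0%). The median log2 ratio over all tested genes was -0.015, and the median of its absolute value was 0.41. Scaling by library totals alone moved that median to -0.13 and the split of calls to 4534 higher and 6690 lower, so that 40.4% of calls were rises in place of 50.7%. MKL1 against control gave 3144 higher (19.3%) and 2449 lower (15%) and a median absolute log2 ratio of 0.17. With library totals those became 2324 higher and 3868 lower. For caMKL1 against control 5900 genes (36.2%) were higher and 5841 (35.8%) lower, or 4528 and 7580 with library totals, and the median absolute log2 ratio was 0.48. These 3 comparisons share libraries, so their counts are given side by side and are not independent of each other. In bulk libraries, more cells with a transcript and more transcript per cell cannot be told apart.

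The genes that rose most were nearly silent with wild-type MKL1, which a ranking by ratio favours. Prelp (chr1:133910304-133921414, minus strand), a small leucine-rich proteoglycan that anchors basement membrane to connective tissue, had 139.7, 139.8 and 133 CPM with caMKL1, against 0, 0.282 and 0.183 CPM with MKL1 and 0.0382, 0.0321 and 0.113 CPM in control. The MKL1 and control libraries overlapped at 11 and 5 counts in all, against 10187 counts with caMKL1. Its log2 ratio of caMKL1 over MKL1 was 9.72 ± 0.13 (adjusted p = 1.92e-25), while MKL1 over control was 1.33 and did not pass the test (adjusted p = 0.195). Actc1, the cardiac muscle actin, had 662, 631 and 676 CPM with caMKL1, 1.17, 1.53 and 1.05 CPM with MKL1 and no count in control. Its log2 ratio was 9.02 ± 0.066 (adjusted p = 1.44e-28), and with the control group set to a floor of 3 counts it was at least 35.28-fold higher with MKL1 than in control. Cnn1, the actin-binding calponin of smooth muscle, had 790.4, 796 and 799 CPM with caMKL1, against 2.31, 2.78 and 2.69 CPM with MKL1 and 0.153, 0.161 and 0.188 CPM in control (log2 ratio of caMKL1 over MKL1 8.26 ± 0.049, adjusted p = 1.33e-32).

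The rest of the 12 largest rises were in genes of varied function, of which Edn2 is described further below. Jph2, a junctophilin that ties the surface membrane to the calcium store of muscle cells, averaged 83.4 ± 2.51 CPM with caMKL1 and 0.285 ± 0.0499 CPM with MKL1 (SD, n = 3 each; log2 ratio 8.16). Slc8a2, a sodium-calcium exchanger, had 1323 counts in the caMKL1 group against 2 in the MKL1 group, a ratio of 622 with an exact 95% counting interval of 172 to 5145. Myh11, the smooth muscle myosin heavy chain, had 182, 189 and 189 CPM with caMKL1 and 1.04, 1.25 and 1.60 CPM with MKL1. Myo18b, a myosin of striated muscle, had 80.9, 76.2 and 79.8 CPM with caMKL1, 0.827, 0.443 and 0.457 CPM with MKL1 and no count in control. Il1r2, a decoy receptor that binds interleukin 1 without signalling, had 58.1, 51.2 and 54.1 CPM with caMKL1, 0.348, 0.282 and 0.502 CPM with MKL1 and 0, 0.0963 and 0.0377 CPM in control (log2 ratio of caMKL1 over MKL1 7.17 ± 0.14). Rbp7, a retinoid-binding protein, averaged 21.8 ± 0.856 CPM against 0.0729 ± 0.0283 CPM. Kcnv2, a modifier subunit of potassium channels, averaged 13.5 ± 0.458 CPM against 0.0729 ± 0.0283 CPM. P2ry10b, a receptor related to the purinergic receptors, averaged 14.7 ± 1.60 CPM against 0.0856 ± 0.0426 CPM. In all 12 the lowest caMKL1 library lay above the highest MKL1 library, which is part of the rule that picked them. Those with few counts in both the MKL1 and control libraries, such as Prelp, could pass the filter on low counts only through the caMKL1 libraries. Their rise was thus in part fixed by the filter.

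**Figure D1:**
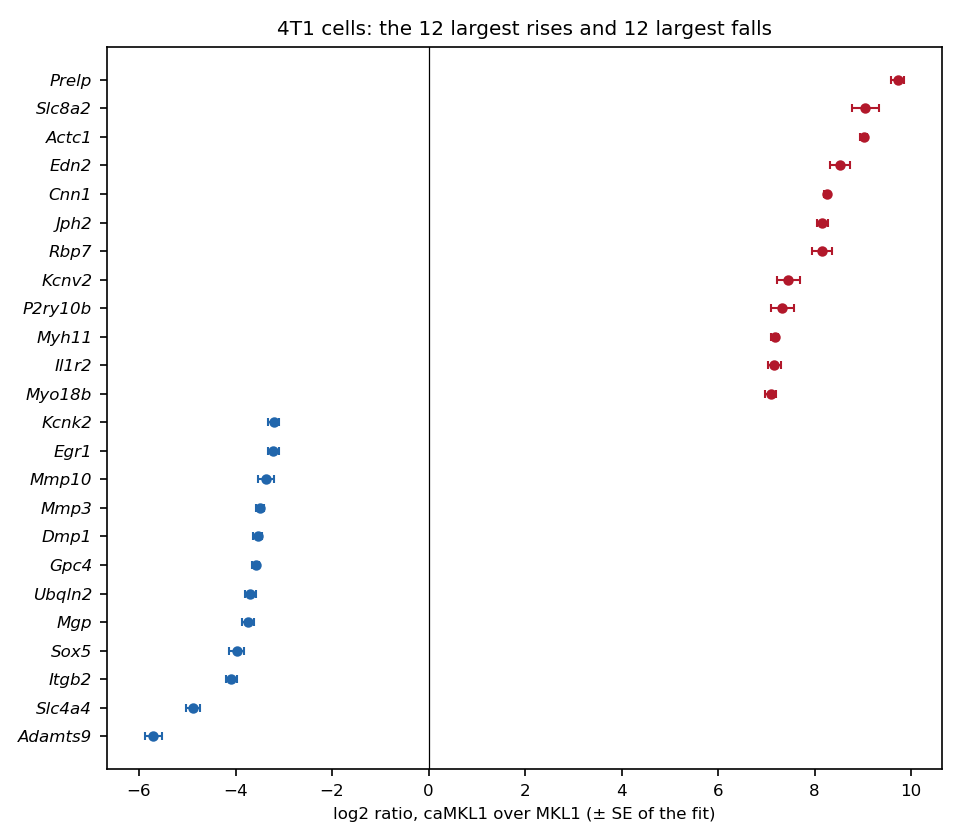
Log2 ratio of caMKL1 over MKL1 in 4T1 cells for the 12 genes with the largest rises (red) and the 12 with the largest falls (blue) among called genes with a mean of at least 5 CPM over the 6 libraries. Points are fitted ratios and bars their SE. Rises reach 9.72 for Prelp and falls -5.70 for Adamts9. The value of Slc8a2 rests on 2 counts in the MKL1 group and depends on the prior count of the fit.

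Among the 12 largest falls, genes differed in where the wild-type form stood relative to control. Adamts9, a secreted metalloprotease that cleaves proteoglycans, had 0.133, 0.258 and 0.286 CPM with caMKL1, against 12.9, 12.1 and 11.6 CPM with MKL1 and 15.3, 15.3 and 15.2 CPM in control. Its log2 ratio of caMKL1 over MKL1 was -5.70 ± 0.18 (adjusted p = 1.03e-18), and MKL1 over control was -0.32 (adjusted p = 0.0032). Slc4a4, a sodium bicarbonate cotransporter, had 1.25, 0.406 and 1.02 CPM with caMKL1, against 25.3, 26.98 and 24.8 CPM with MKL1 and 23.2, 25.1 and 22.9 CPM in control, and the MKL1 and control libraries overlapped. Itgb2, the beta chain shared by leukocyte integrins, had 1.65, 1.55 and 1.31 CPM with caMKL1, against 24.02, 26.9 and 25.4 CPM with MKL1 and 42.1, 42.8 and 39.3 CPM in control. Here both steps went down: the log2 ratio was -4.08 ± 0.10 for caMKL1 over MKL1 and -0.70 for MKL1 over control (adjusted p = 1.64e-09).

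The other genes among the 12 largest falls also differed in their place relative to control. Sox5, a transcription factor of cartilage, averaged 0.690 ± 0.0242 CPM with caMKL1 and 10.9 ± 0.735 CPM with MKL1 (SD, n = 3 each; log2 ratio -3.98). Mgp, the matrix Gla protein that inhibits calcification, had 2.22, 1.96 and 1.51 CPM with caMKL1, against 23.9, 24.7 and 27.3 CPM with MKL1 and 13.99, 12.9 and 16.4 CPM in control. Dmp1, a matrix phosphoprotein of bone and dentin, had 2.71, 2.43 and 2.33 CPM with caMKL1, against 27.5, 27.6 and 32.01 CPM with MKL1 and 20.2, 20.01 and 20.5 CPM in control. For Mgp and Dmp1 the wild-type form lay above control and caMKL1 below it, with log2 ratios of MKL1 over control of 0.81 and 0.52 and of caMKL1 over control of -2.93 and -3.02, each with an adjusted p under 0.05. Gpc4, a cell surface glypican, ran the same way, with 5.87, 4.61 and 5.71 CPM with caMKL1, 65.5, 63.4 and 64.3 CPM with MKL1 and 39.9, 38.2 and 41.3 CPM in control. The stromelysins Mmp3 and Mmp10, which degrade matrix, had log2 ratios of caMKL1 over MKL1 of -3.50 ± 0.085 and -3.36 ± 0.17. Ubqln2, a shuttle factor of the proteasome, averaged 2.17 ± 0.531 CPM with caMKL1 and 28.2 ± 0.532 CPM with MKL1. Kcnk2, a mechanosensitive potassium channel, averaged 1.81 ± 0.299 CPM against 16.7 ± 1.04 CPM. Egr1, listed here for its fall, is described with the immediate early genes.

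Next comes the endothelin gene Edn2. The stress gene Chac1 and the interferon gene Ifi44 show other orders of the 3 groups. Edn2 (chr4:120161206-120167360, plus strand), a vasoconstrictor peptide precursor, had 22.7, 22.9 and 23.5 CPM with caMKL1, against 0.0435, 0.0805 and 0.0457 CPM with MKL1 and no count in control. Its log2 ratio of caMKL1 over MKL1 was 8.53 ± 0.21 (adjusted p = 1.48e-19), resting on 1709 counts against 4. Edn2 passed the filter on low counts only through the caMKL1 libraries. Against control set to 3 counts, Edn2 was at least 644.7-fold higher with caMKL1. Ifi44 (chr3:151730922-151749960, minus strand), an interferon-induced protein, had 39.9, 40.98 and 37.4 CPM with caMKL1, against 185, 165 and 209 CPM with MKL1 and 54.7, 40.9 and 58.8 CPM in control. It was highest with the wild-type form, and caMKL1 overlapped with control. The log2 ratio was -2.24 ± 0.089 for caMKL1 over MKL1 (adjusted p = 1.18e-16), 1.86 for MKL1 over control (adjusted p = 1.46e-14) and -0.38 for caMKL1 over control (adjusted p = 0.00122). Chac1 (chr2:119351229-119354381, plus strand), which degrades glutathione and is a target of the stress factor ATF4, had 121, 128 and 139 CPM with caMKL1, against 37.9, 32.98 and 41.6 CPM with MKL1 and 55.2, 43.9 and 53.3 CPM in control. It was lowest with the wild-type form. The log2 ratio was 1.79 ± 0.073 for caMKL1 over MKL1 (adjusted p = 2.26e-16), -0.44 for MKL1 over control (adjusted p = 9.28e-05) and 1.35 for caMKL1 over control (adjusted p = 1.3e-14).

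**Figure D2:**
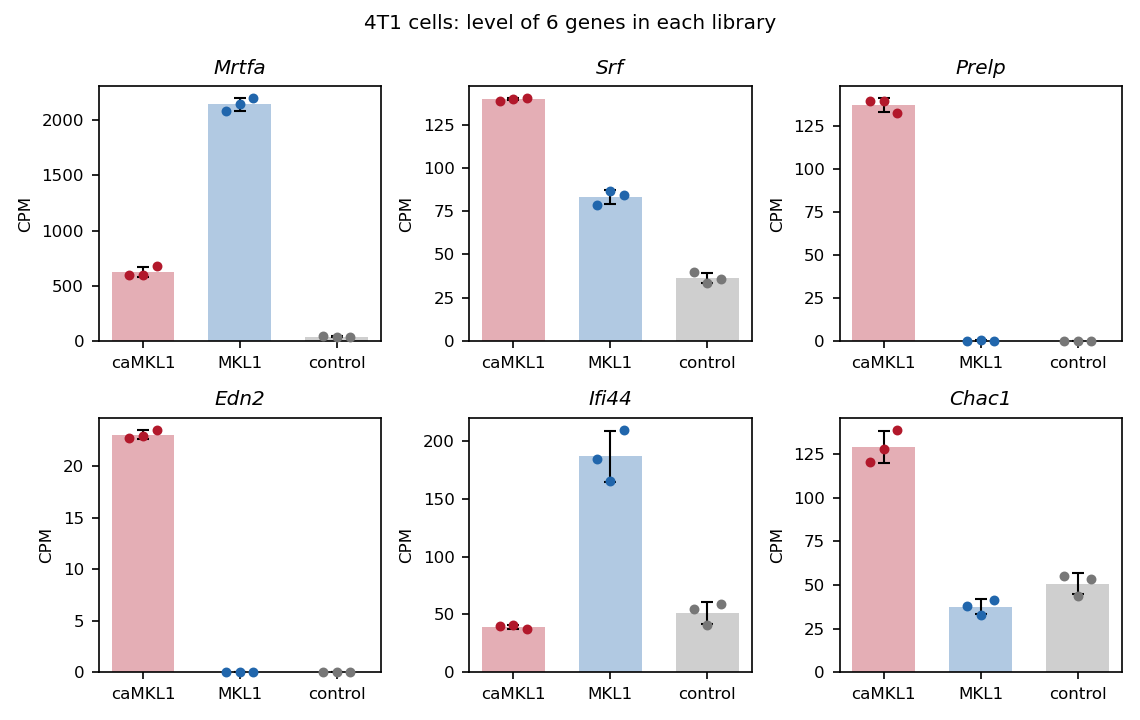
Level in CPM (linear axes from 0) of Mrtfa, Srf, Prelp, Edn2, Ifi44 and Chac1 in 4T1 caMKL1 (red), MKL1 (blue) and control (grey) libraries. Points are libraries, bars the mean of 3 and lines its SD. Mrtfa and Ifi44 are highest with wild-type MKL1, and the other 4 genes are highest with caMKL1.

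The counts of list members for caMKL1 over MKL1 given from here on stand against 33.8% higher and 32.8% lower among all genes tested. Those for MKL1 over control stand against 19.3% higher and 15% lower, and those for caMKL1 over control against 36.2% higher and 35.8% lower. A share near those of the same comparison is no result about a list. A member with few counts in the MKL1 and control libraries that passed the filter on low counts through the caMKL1 libraries had to be higher there. The number of such members is given for the muscle, proteoglycan, collagen, p53 target, keratin and histone lists, in a count added after the data were seen. Each of the other lists had at most 1, which in the endothelin list was Edn2.

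Contractile and cytoskeletal targets of MKL1 and SRF were higher with caMKL1 than with the wild-type form in nearly all members tested. Of 35 MRTF-SRF cytoskeletal targets tested, 33 were higher and 1 lower with caMKL1 than with MKL1, with a median log2 ratio of 1.00 where all tested genes had -0.015. The member called lower was Zyx, the adhesion protein zyxin, named after its value was seen, at -0.095 (adjusted p = 0.0299). All 35 were also higher with MKL1 than in control, with a median of 0.94. Acta2, the smooth muscle actin, had 9175, 9371 and 9721 CPM with caMKL1, against 402, 399 and 401 CPM with MKL1 and 0.459, 0.225 and 0.565 CPM in control. Actg2, the enteric smooth muscle actin, had 3496, 3456 and 3571 CPM with caMKL1, against 60.7, 63.8 and 64.3 CPM with MKL1 and 0.0382, 0.0321 and 0.0377 CPM in control. Acta1, the skeletal muscle actin, had 2633, 2638 and 2653 CPM with caMKL1, against 177, 181 and 166 CPM with MKL1 and 0.229, 0.321 and 0.188 CPM in control. In each of these actins wild-type MKL1 made the step away from near silence, and caMKL1 over MKL1 added log2 ratios of 4.56, 5.80 and 3.92 (adjusted p of 2.51e-30, 7.5e-33 and 1e-29). The actin genes are near-identical in their coding sequence, so the division of reads among them is uncertain. Fhl1, a LIM protein of muscle, had 276, 251 and 264 CPM with caMKL1, against 4.31, 3.62 and 2.88 CPM with MKL1 and 0.153, 0.0642 and 0.0753 CPM in control.

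Of the smooth muscle genes tested, 13 of 13 were higher with caMKL1 than with MKL1, with a median log2 ratio of 4.19. Acta2, Actg2 and Cnn1 are in this list and among the MRTF-SRF targets, so the lists are not separate. Of these, 12 pass the filter in the MKL1 and control libraries alone (median 4.04) and 1, Des, only through the caMKL1 libraries. In the same list, 12 were higher with MKL1 than in control, with a median of 2.41. Myocd, the muscle-specific relative of MKL1, had no count in any of the 9 libraries. Lmod1, a leiomodin that nucleates actin filaments in smooth muscle, had 117, 119 and 116 CPM with caMKL1, against 0.827, 1.49 and 1.92 CPM with MKL1 and 0.153, 0.193 and 0.151 CPM in control (log2 ratio of caMKL1 over MKL1 6.38 ± 0.095). Kcnmb1, the smooth muscle beta subunit of the large-conductance potassium channel, had 15.1, 14.4 and 15.4 CPM with caMKL1, 0.827, 0.564 and 1.10 CPM with MKL1 and no count in control. Des, the muscle intermediate filament desmin, had 6.54, 6.90 and 6.65 CPM with caMKL1 and 0.305, 0.201 and 0.228 CPM with MKL1, which overlapped with 0.344, 0.161 and 0.188 CPM in control. Desmin is thus a member that the wild-type form was not shown to move, at a log2 ratio over control of 0.10 (adjusted p = 0.897). Tagln, the calponin relative SM22, had 11.7, 10.4 and 11.5 CPM with caMKL1, against 0.522, 0.886 and 0.868 CPM with MKL1 and 0.191, 0.578 and 0.377 CPM in control. Synpo2, an actin bundling protein, had log2 ratios of 3.90 for caMKL1 over MKL1 and 2.22 for MKL1 over control. At the small end, Mylk, the myosin light chain kinase, had 2.47 and 0.40 on the same scale, Ldb3, a Z-disc protein, 2.12 and 4.68, and Smtn, smoothelin, 0.95 and 0.38.

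**Figure D3:**
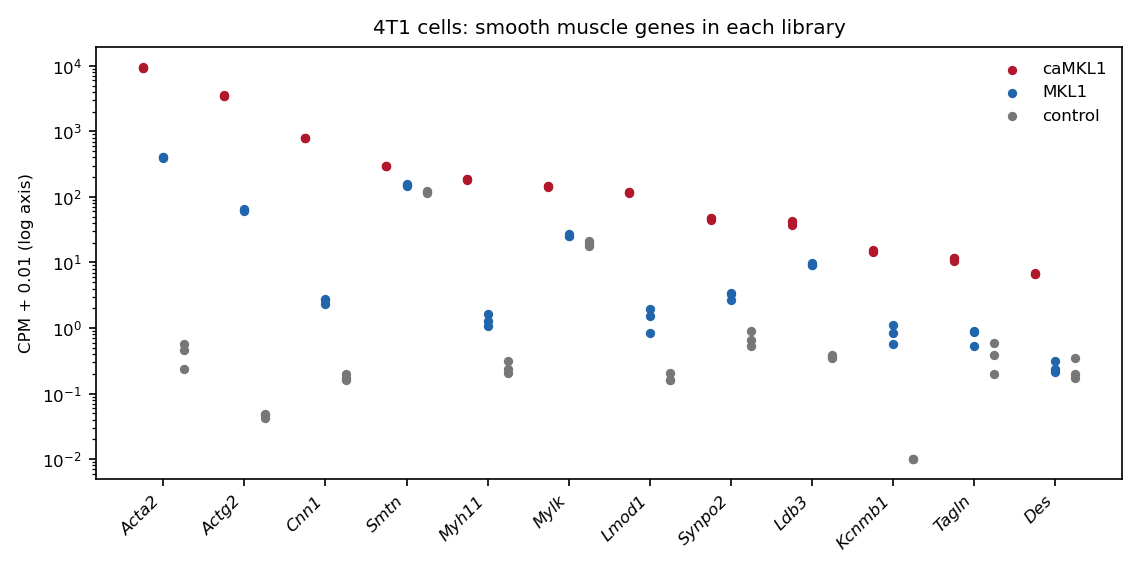
Level of 12 of the 13 tested smooth muscle genes in 4T1 libraries, as CPM plus 0.01 on a log axis, with caMKL1 (red) left, MKL1 (blue) in the middle and control (grey) right for each gene. Each point is a library. The caMKL1 libraries are highest in every gene shown, and Kcnmb1 has no count in control.

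Of 16 striated muscle genes tested, 5 passed the filter only through the caMKL1 libraries, namely Tnnt1, Tnni1, Myl1, Myl7 and Myh6. Among the other 11, 8 were higher and 1 lower with caMKL1, at a median log2 ratio of 2.38, while over all 16 MKL1 over control gave 8 higher and 1 lower. Actc1 is in this list and among the MRTF-SRF targets. Tnnt3, a troponin T of fast muscle, had 255, 268 and 267 CPM with caMKL1, against 2.96, 2.78 and 3.38 CPM with MKL1 and 1.07, 1.06 and 1.05 CPM in control (log2 ratio of caMKL1 over MKL1 6.44 ± 0.059). Myom1, a protein of the sarcomere M band, had 124, 123 and 123 CPM with caMKL1, against 5.003, 6.89 and 4.89 CPM with MKL1 and 1.57, 1.28 and 1.39 CPM in control. Myh6, the cardiac alpha myosin heavy chain, had 681 counts with caMKL1 against 2 with MKL1, a ratio of 320 with a counting interval of 88.3 to 2651. Myl1, a myosin light chain, had 366 against 3, a ratio of 115 with an interval of 39.0 to 559. Myl7, the atrial light chain, averaged 2.81 ± 0.117 CPM with caMKL1 and 0.113 ± 0.0416 CPM with MKL1.

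In the list of MRTF and ternary complex factor genes 5 of 11 tested were higher and 5 lower with caMKL1. Elk1, a ternary complex factor, had 107, 109.5 and 107 CPM with caMKL1, against 34.2, 34.8 and 33.9 CPM with MKL1 and 27.8, 24.6 and 28.2 CPM in control (log2 ratio 1.65 ± 0.047, adjusted p = 1.76e-19). Elk3, a factor of the same family that can repress, went the other way, with 101.62, 101 and 102.01 CPM with caMKL1 and 180.5, 186 and 195 CPM with MKL1 (log2 ratio -0.88). Elk4 had a log2 ratio of 0.17 (adjusted p = 0.000321), which did not pass the test with library totals (adjusted p = 0.194). Phactr genes encode actin and phosphatase binding proteins with the same kind of actin-binding motif as MKL1. Phactr1 had 1.65, 1.96 and 2.16 CPM with caMKL1, against 16.4, 17.4 and 18.5 CPM with MKL1 and 8.14, 8.64 and 8.29 CPM in control, so that it was highest with the wild-type form. Phactr2 had 7.47, 6.34 and 7.06 CPM with caMKL1 and 1.70, 1.25 and 1.55 CPM with MKL1 (log2 ratio 2.21), and Phactr4 had a log2 ratio of -0.24. Fhl2, a LIM protein that binds SRF, had 0.37, and Scai, a repressor of MKL1, had -0.058 and did not pass the test (adjusted p = 0.481), except with library totals (adjusted p = 0.0335).

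Of 43 general actin assembly genes tested, 22 (51.2%, where all genes had 33.8%) were higher and 17 (39.5%, where all genes had 32.8%) lower with caMKL1, with a median log2 ratio of 0.13, and 7 rose and 4 fell by at least 2-fold. Dstn, destrin, which severs and depolymerises filaments, had 1871, 1867 and 1869 CPM with caMKL1, against 576, 598 and 586 CPM with MKL1 and 192, 203 and 197 CPM in control. Cfl2, the muscle cofilin, averaged 416 ± 18.4 CPM against 153 ± 3.44 CPM, and Gsn, gelsolin, 885 ± 15.9 CPM against 319 ± 4.39 CPM (SD, n = 3 each). The formin Fhod3, found in heart muscle, had a log2 ratio of 1.51 and the leukocyte formin Fmnl1 one of -1.43. Pfn2, a profilin, had -1.51. For Cfl2 and Fhod3 the step from control to wild-type MKL1 was small, at log2 ratios of 0.26 and -0.15.

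Among 31 focal adhesion and integrin genes, 21 were higher and 8 lower with caMKL1 (median log2 ratio 0.29). Itga5, the alpha chain of the fibronectin receptor, had 1329, 1348 and 1398 CPM with caMKL1, against 163, 168 and 149.5 CPM with MKL1 and 75.6, 72.00000 and 65.2 CPM in control (log2 ratio 3.08 ± 0.043, adjusted p = 2.13e-25). Lims2, an adhesion adaptor known as PINCH2, had 69.2, 63.6 and 67.98 CPM with caMKL1, against 5.70, 5.88 and 4.93 CPM with MKL1 and 0.0764, 0.193 and 0.377 CPM in control. Itga1, a collagen-binding integrin chain, had 287, 286 and 286 CPM with caMKL1 and 65.5, 71.7 and 71.5 CPM with MKL1, and tensin 1 (Tns1), which links integrins to actin, 269, 268 and 273 CPM and 58.4, 57.03 and 58.6 CPM. The laminin-binding chain Itga3 went down, with 583, 579 and 589.8 CPM with caMKL1, against 1723, 1739 and 1729.9 CPM with MKL1 and 1685, 1557 and 1602 CPM in control (log2 ratio -1.57). Itgb8, which binds latent TGF-beta, had a log2 ratio of -2.02.

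Caveolae are flask-shaped membrane pits that flatten under tension. In the list of their coat genes 6 of 8 tested were higher and 1 lower with caMKL1. Cav1, the main coat protein, had 376, 357 and 361 CPM with caMKL1, against 74.5, 74.3 and 72.5 CPM with MKL1 and 47.7, 49.6 and 47.4 CPM in control (log2 ratio 2.30 ± 0.034). The cavins Cavin1, Cavin2 and Cavin3, which shape the pit, had log2 ratios of 1.38, 1.47 and 1.06, and Cav2 had 0.51. Ehd2, an ATPase of the caveolar neck, fell, with 119, 116 and 119.5 CPM with caMKL1 and 280.4, 283 and 293 CPM with MKL1. Pacsin2, a membrane-bending protein, had 0.24, and Cavin4, the muscle cavin, averaged 1.13 CPM against 1.14 CPM and did not pass the test (adjusted p = 0.947).

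YAP-TEAD genes, the targets of the other mechanosensitive coactivator, had 19 higher and 8 lower of 27 tested, with a median log2 ratio of 0.45 for caMKL1 over MKL1 and 0.17 for MKL1 over control. Ccn1, a secreted matricellular protein, had 1197, 1154 and 1219 CPM with caMKL1, against 231, 230.0 and 245 CPM with MKL1 and 128, 124 and 119.8 CPM in control. Ankrd1, a nuclear cofactor of stretched muscle, had 1344, 1354 and 1412 CPM with caMKL1, against 282, 287 and 273 CPM with MKL1 and 205, 205 and 186 CPM in control. Ccn2, the connective tissue growth factor, had 379, 346 and 422 CPM with caMKL1 and 115, 111 and 132 CPM with MKL1 (log2 ratio 1.68 ± 0.059). These are also known SRF-responsive genes, so the list is not separate from the contractile lists. F3, tissue factor, had a log2 ratio of 1.79 and Tgfb2, a ligand of the TGF-beta family, one of 2.00. Edn1, the best known endothelin, had 17.8, 16.3 and 17.9 CPM with caMKL1, against 2.74, 2.70 and 3.20 CPM with MKL1 and 2.33, 2.41 and 1.77 CPM in control, and its step over control with MKL1 did not pass the test (adjusted p = 0.0517).

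The endothelin pathway was represented by its ligands. Edn1 and Edn2 rose as given above, and Ece1, which cleaves the precursors, had 206, 201 and 199 CPM with caMKL1 and 256, 258 and 262 CPM with MKL1 (log2 ratio -0.36, adjusted p = 2e-10). The receptors Ednra and Ednrb did not pass the filter on low counts, with 5, 3 and 4 counts of Ednra in the caMKL1, MKL1 and control groups and none of Ednrb.

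Small leucine-rich proteoglycans bind collagen and growth factors in the matrix. Of 17 in the list 12 were tested, and 4 of these, Prelp, Bgn, Aspn and Nyx, passed the filter only through the caMKL1 libraries, so that their rise was in part fixed by the filter. Among the other 8, 3 were higher with caMKL1, near the share of all genes, and 1 lower. Ogn, osteoglycin, had 91.5, 95.9 and 101 CPM with caMKL1, against 35.5, 36.7 and 35.9 CPM with MKL1 and 6.42, 6.90 and 5.69 CPM in control. Optc, opticin, known from the vitreous of the eye, had 26.3, 26.3 and 28.6 CPM with caMKL1, 1.001, 1.73 and 1.10 CPM with MKL1 and no count in control. Prelp was the largest rise, and Bgn, biglycan, averaged 4.66 ± 0.393 CPM with caMKL1 and 0.404 ± 0.0784 CPM with MKL1. Aspn, asporin, averaged 1.65 CPM against 0.211 CPM, Podn, podocan, 2.22 CPM against 0.674 CPM, and Nyx, nyctalopin, 0.769 CPM against 0.161 CPM. Podnl1 was the member that fell (log2 ratio -0.26, adjusted p = 0.00181). Tsku, Chad, Ecm2 and Omd did not pass the test, with log2 ratios of -0.0049, 0.029, 0.40 and 0.44. The classic fibroblast members did not pass the filter: Dcn, decorin, had 0, 4 and 3 counts in the caMKL1, MKL1 and control groups, and Lum, lumican, had none.

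Collagens and matrix glycoproteins had 17 higher and 9 lower of 27 tested (median log2 ratio 0.47). Of these, Col1a2 and Col6a3 passed the filter only through the caMKL1 libraries, so that their rise was in part fixed by the filter. Among the other 25, 15 were higher and 9 lower (median 0.41). Col6a3, a chain of the beaded filament collagen VI, had 21.001, 16.3 and 18.7 CPM with caMKL1, against 0.218, 0.362 and 0.0457 CPM with MKL1 and 0, 0.0963 and 0 CPM in control. Tnc, tenascin C, which is laid down in wounds and tumour stroma, had 530.1, 523 and 533 CPM with caMKL1, against 116, 118 and 117 CPM with MKL1 and 61.6, 66.6 and 61.2 CPM in control (log2 ratio 2.18 ± 0.032). Fbn1, the microfibril protein fibrillin 1, averaged 14.1 ± 0.935 CPM against 1.57 ± 0.210 CPM. Col5a1, a fibril-nucleating collagen, had a log2 ratio of 1.54 and the crosslinking oxidase Loxl2 one of 2.12, while its relative Loxl3 fell, with 7.34, 7.19 and 8.41 CPM with caMKL1, 41.2, 38.9 and 39.6 CPM with MKL1 and 28.7, 25.3 and 27.2 CPM in control. For Col5a1 and Loxl2 the wild-type form was not shown to differ from control, with log2 ratios of 0.018 (adjusted p = 0.7) and 0.098 (adjusted p = 0.84). Laminins and basement membrane genes had 3 higher and 7 lower of 14. Lamb3 and Lama3, laminin chains that anchor epithelia, had log2 ratios of 1.14 and -0.80. Hspg2, perlecan, had 0.62 and Nid1, nidogen, -1.50.

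Proteases and their inhibitors had 11 higher and 13 lower of 26 tested, with 8 and 5 of them by at least 2-fold. Besides the stromelysins and Adamts9, Mmp9, the gelatinase B, fell, with 19.8, 17.8 and 18.5 CPM with caMKL1, against 122, 124 and 117 CPM with MKL1 and 245, 244 and 247 CPM in control. It went down in both steps, by log2 ratios of -2.70 and -1.02. Serpine2, the inhibitor protease nexin 1, had 0.133, 0.443 and 0.163 CPM with caMKL1, against 5.79, 7.21 and 7.17 CPM with MKL1 and 6.65, 6.94 and 7.53 CPM in control (log2 ratio -4.69 ± 0.24).

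Interferon-stimulated genes were raised by the wild-type form, and most of them were lower again with caMKL1. Interferons act through JAK kinases and the transcription factors these activate to switch on antiviral genes. Of 42 tested, 32 were lower and 6 higher with caMKL1 than with MKL1, with a median log2 ratio of -0.64. Wild-type MKL1 over control had 41 higher, with a median of 1.10. The caMKL1 group was called above control in 26 members and below it in 9, with a median of 0.45. Besides Ifi44, its neighbour in name Ifi44l had 0.267, 0.111 and 0.204 CPM with caMKL1, against 3.57, 1.89 and 3.38 CPM with MKL1 and 0.650, 0.578 and 0.603 CPM in control. Zbp1, a sensor of Z-form nucleic acid, had 11.1, 12.6 and 11.9 CPM with caMKL1, against 52.7, 44.6 and 51.7 CPM with MKL1 and 19.99, 14.2 and 17.7 CPM in control. Cmpk2, a mitochondrial nucleotide kinase, had 9.25, 9.04 and 8.65 CPM with caMKL1, against 31.5, 29.7 and 38.2 CPM with MKL1 and 17.7, 15.4 and 16.8 CPM in control. In these 3 the caMKL1 libraries lay below all control libraries, with log2 ratios over control of -1.66, -0.53 and -0.89 (adjusted p of 0.00222, 6.52e-05 and 1.3e-08). Oas2, a sensor of double-stranded RNA, had 12.2, 14.5 and 12.2 CPM with caMKL1, against 46.9, 43.01 and 47.7 CPM with MKL1 and 18.8, 13.2 and 18.5 CPM in control, with caMKL1 overlapping control.

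Ifit2 was among the 6 members that rose. This RNA-binding interferon gene had 361, 366 and 343 CPM with caMKL1, against 76.7, 67.8 and 88.5 CPM with MKL1 and 43.8, 44.1 and 45.1 CPM in control. Its log2 ratio of caMKL1 over MKL1 was 2.20 ± 0.055 (adjusted p = 1.33e-20). Among interferon regulatory factors and signalling genes 14 of 25 were lower and 4 higher. Irf7, the amplifier of the interferon response, had 45.8, 53.3 and 45.3 CPM with caMKL1, against 86.2, 79.2 and 90.6 CPM with MKL1 and 31.8, 25.5 and 30.2 CPM in control. Irf8, a factor best known from myeloid cells, had 0.623, 0.996 and 0.530 CPM with caMKL1, against 6.31, 5.72 and 5.75 CPM with MKL1 and 14.2, 13.04 and 15.6 CPM in control, and fell in both steps. The receptor chain Ifngr1 and the kinase Jak2 had log2 ratios of -0.62 and -0.60, the DNA sensor Cgas -0.62 and the feedback inhibitor Socs1 -0.70.

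MHC class I genes, which present peptides to T cells and can be induced by interferon, ran otherwise. Of 22 tested, 14 were higher and 6 lower with caMKL1 (median log2 ratio 0.38), and 20 were higher with MKL1 than in control. Nlrc5, the transactivator of these genes, had 240.1, 234 and 243 CPM with caMKL1, against 117, 118 and 113 CPM with MKL1 and 60.2, 59.9 and 60.9 CPM in control. B2m, the light chain, had 1834, 1952 and 1911 CPM with caMKL1, against 999, 1012 and 1066 CPM with MKL1 and 600.3, 574 and 604 CPM in control (log2 ratio 0.89 ± 0.030). H2-Q7, H2-T22 and H2-Q6, genes of nonclassical heavy chains, had log2 ratios of 1.35, 1.03 and 0.99, and reads of such close copies are uncertain in their division. Psmb10, a subunit of the immunoproteasome, was the member with the largest fall, with 25.7, 26.4 and 27.6 CPM with caMKL1, against 48.7, 48.4 and 50.5 CPM with MKL1 and 39.7, 32.5 and 32.1 CPM in control.

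**Figure D4:**
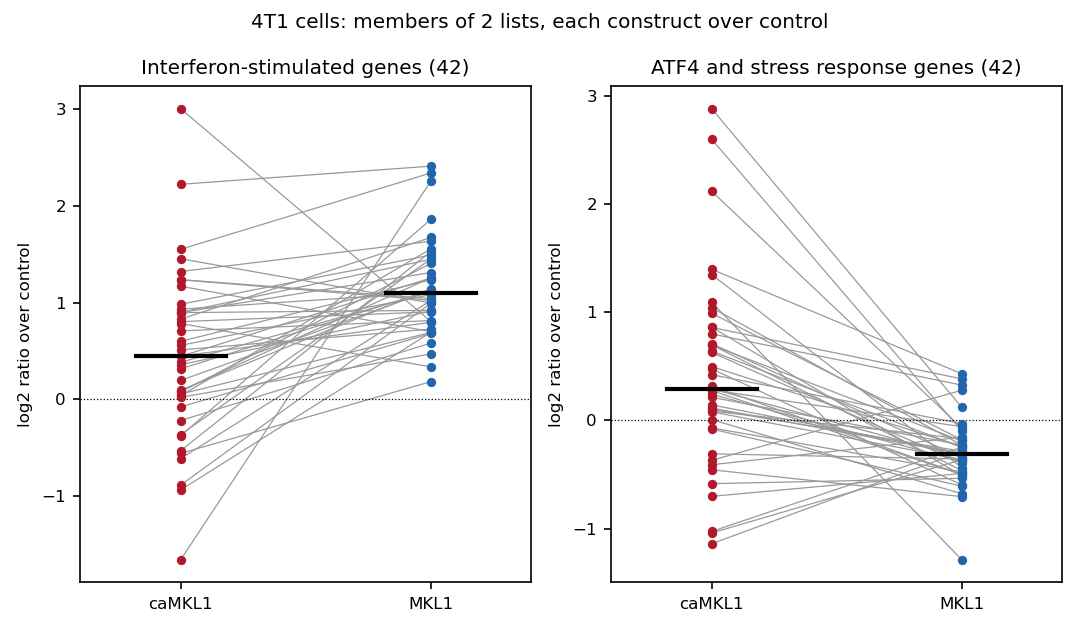
Log2 ratio over control of the 42 tested interferon-stimulated genes (left) and the 42 tested ATF4 and integrated stress response genes (right), with caMKL1 (red) left of MKL1 (blue). Lines join the values of a gene and black bars are medians. The medians over control are 0.45 with caMKL1 and 1.10 with MKL1 for the first list, and 0.29 with caMKL1 and -0.31 with MKL1 for the second; both ratios use the same control libraries.

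Genes of the integrated stress response were in the main lower with the wild-type form and higher with caMKL1. In it, kinases such as PERK and GCN2 slow translation and raise the factor ATF4, which turns on amino acid synthesis, transport and transfer RNA charging genes. Of 42 genes tested, 34 were higher and 6 lower with caMKL1 than with MKL1 (median log2 ratio 0.58), while MKL1 over control had 3 higher and 31 lower (median -0.31). For caMKL1 over control the counts were 29 higher and 9 lower. Chac1 was given above, and Atf5, a factor downstream of ATF4, had 119, 129 and 119 CPM with caMKL1, against 52.9, 50.7 and 48.5 CPM with MKL1 and 64.8, 54.3 and 59.4 CPM in control. Gpt2, a mitochondrial alanine transaminase, had 159.6, 169.7 and 171 CPM with caMKL1, against 66.6, 63.8 and 62.5 CPM with MKL1 and 97.1, 84.6 and 93.6 CPM in control. Both lay lowest with wild-type MKL1 and highest with caMKL1, and no groups overlapped. Atf3, Ppp1r15a and Vldlr rose with caMKL1 and had no call between MKL1 and control. Atf3, a stress-induced repressor, had 122, 129 and 141 CPM with caMKL1, against 18.6, 18.6 and 23.2 CPM with MKL1 and 22.9, 18.7 and 23.2 CPM in control. Ppp1r15a, or GADD34, which reverses the translational block, had 160.5, 159 and 169.5 CPM with caMKL1, against 22.01, 19.98 and 30.2 CPM with MKL1 and 21.98, 18.9 and 25.5 CPM in control (log2 ratio 2.77 ± 0.089, adjusted p = 2.24e-18). Vldlr, a lipoprotein receptor, had 139, 145 and 136 CPM with caMKL1, against 31.1, 29.1 and 31.9 CPM with MKL1 and 33.2, 30.6 and 32.95 CPM in control.

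Endoplasmic reticulum chaperones and unfolded protein genes had 15 higher and 3 lower of 22 (median log2 ratio 0.35). Herpud1, which serves degradation of misfolded proteins, had 116, 123 and 126 CPM with caMKL1, against 46.03, 46.4 and 49.6 CPM with MKL1 and 58.3, 53.4 and 60.2 CPM in control. Edem1 and Dnajc10, which also serve that degradation, had log2 ratios of 1.48 and 1.48, and the cochaperone Dnajb9 and the secreted factor Manf 0.88 and 0.82. Ern1, the sensor IRE1, fell, with 63.4, 61.6 and 56.2 CPM with caMKL1, against 127, 126 and 109 CPM with MKL1 and 151, 141 and 139.9 CPM in control. Glutathione and NRF2 genes had 9 higher and 11 lower of 22. Nqo1, a quinone reductase and classic NRF2 target, had 44.7, 44.7 and 45.7 CPM with caMKL1 and 16.2, 17.2 and 16.1 CPM with MKL1 (log2 ratio 1.45), while Ggct, which breaks down gamma-glutamyl peptides, had 4.98, 5.61 and 4.53 CPM and 21.4, 22.96 and 22.9 CPM (log2 ratio -2.15). Hmox1 and Gstm1 had 1.08 and 1.44, and the metallothionein Mt2 -1.18.

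Immediate early genes, which growth factors switch on through MAPK signals and ternary complex factors, had 14 higher and 9 lower of 26 tested. The lower share, 34.6%, is near the 32.8% of all genes, and the higher share is 53.8%, where all genes had 33.8%. Egr1, a zinc finger factor, had 12.99, 12.9 and 13.02 CPM with caMKL1, against 114, 114 and 135 CPM with MKL1 and 155, 147 and 203 CPM in control (log2 ratio -3.22 ± 0.11, adjusted p = 3.48e-18). Fosl1, the AP-1 factor FRA-1, had 2.89, 3.17 and 1.88 CPM with caMKL1, against 12.01, 12.4 and 13.7 CPM with MKL1 and 14.98, 14.002 and 14.7 CPM in control, and Egr3 had a log2 ratio of -1.33. Upward went Zfp36, which destabilises cytokine messages, with 47.8, 53.7 and 54.3 CPM with caMKL1 and 16.4, 15.7 and 16.9 CPM with MKL1. Arc, known from neuronal plasticity, averaged 4.60 ± 0.465 CPM against 1.34 ± 0.315 CPM.

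MAPK feedback genes, which ERK signals induce, had 13 lower and 6 higher of 20 (median log2 ratio -0.46). Dusp6, a phosphatase of ERK, had 28.4, 26.8 and 27.9 CPM with caMKL1, against 133, 148 and 135 CPM with MKL1 and 135, 126 and 124 CPM in control. Etv4 and Etv5, ETS factors downstream of ERK, had 13.1, 13.2 and 14.5 CPM and 14.1, 15.8 and 16.04 CPM with caMKL1, against 66.8, 64.7 and 62.8 CPM and 55.8, 60.5 and 59.6 CPM with MKL1. Spry1, an inhibitor of receptor tyrosine kinase signals, had 17.6, 17.1 and 18.3 CPM with caMKL1, against 60.8, 59.1 and 70.6 CPM with MKL1 and 74.8, 66.2 and 83.8 CPM in control. The log2 ratios of MKL1 over control were smaller, at 0.11 for Dusp6, -0.42 for Etv4, -0.018 for Etv5 and -0.24 for Spry1, of which that of Etv5 did not pass the test (adjusted p = 0.822). Dusp1, a nuclear phosphatase of p38 and JNK, rose, with 125, 123 and 128 CPM with caMKL1, against 18.4, 15.2 and 15.3 CPM with MKL1 and 9.29, 8.32 and 10.02 CPM in control (log2 ratio 2.94 ± 0.060), and Dusp2 had a log2 ratio of 2.02. Upstream, the EGF receptor ligands Hbegf, Tgfa and Areg had log2 ratios of -1.37, -1.15 and -1.03, and the receptors Erbb2 and Erbb3 -0.76 and -1.05. The ligands Btc and Nrg1 had 1.16 and 0.71. Egfr had 0.18 (adjusted p = 0.0135), which missed the threshold when library totals set the scale (adjusted p = 0.383), with no filter (adjusted p = 0.0554) and without MKL1 replicate 3 (adjusted p = 0.0549). Egf and Epgn did not pass the test, at 0.33 and 0.61. In that list of 10, 3 were higher and 5 lower.

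TGF-beta pathway genes had 10 higher, near the share of all genes, and 15 lower of 29 tested. The ligand Tgfb2 had 174, 179 and 177 CPM with caMKL1, against 43.03, 46.2 and 42.5 CPM with MKL1 and 30.8, 30.2 and 26.9 CPM in control. The coreceptor Tgfbr3 had 5.47, 6.01 and 5.43 CPM with caMKL1 and 24.7, 25.5 and 24.9 CPM with MKL1, and the signal transducer Smad3 53.4, 55.5 and 55.4 CPM with caMKL1, against 184, 187 and 192 CPM with MKL1 and 215.43, 197 and 216 CPM in control. Acvrl1, a type I receptor, had a log2 ratio of -1.50, and Tgfbi, a secreted matrix protein named for its induction by this pathway, one of 1.59.

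Chemokine, interleukin 1 and NF-kB genes had 20 lower and 7 higher of 31 tested and a median log2 ratio of -0.66. Cx3cl1, or fractalkine, an attractant of monocytes and T cells, had 21.8, 22.1 and 21.5 CPM with caMKL1, against 95.97, 97.9 and 94.1 CPM with MKL1 and 88.8, 84.4 and 82.8 CPM in control. C3, the central complement component, had 45.4, 40.7 and 39.8 CPM with caMKL1, against 137, 141 and 141 CPM with MKL1 and 120.0, 117 and 116 CPM in control. Ccl2, a monocyte attractant, had 1.11, 1.18 and 1.06 CPM with caMKL1, against 4.09, 3.71 and 3.88 CPM with MKL1 and 7.68, 7.64 and 6.21 CPM in control, and fell in both steps. Vcam1, a leukocyte adhesion receptor, averaged 43.8 ± 1.74 CPM with caMKL1 and 122 ± 5.82 CPM with MKL1, and the chemokines Cxcl1 and Cxcl11 had log2 ratios of -1.46 and -2.32. Colony-stimulating factors and gp130 cytokines had 4 higher and 6 lower of 14. Csf3, the granulocyte colony-stimulating factor, had 79.8, 78.1 and 78.4 CPM with caMKL1, against 16.9, 16.2 and 13.97 CPM with MKL1 and 15.3, 15.6 and 17.1 CPM in control (log2 ratio 2.32 ± 0.060). Il6ra, the interleukin 6 receptor chain, fell, with 13.5, 13.1 and 13.9 CPM with caMKL1 and 50.3, 45.2 and 52.9 CPM with MKL1. Il6 itself averaged 1.64 ± 0.225 CPM against 0.465 ± 0.191 CPM (adjusted p = 2.32e-05), Ctf1 had a log2 ratio of 1.11, and Clcf1 one of -0.92.

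Angiogenic factors had 10 higher and 6 lower of 18. Vegfd, a growth factor for lymphatic vessels, had 24.9, 25.6 and 28.97 CPM with caMKL1, against 0.827, 1.69 and 0.731 CPM with MKL1 and 0.229, 0.128 and 0.0377 CPM in control (log2 ratio 4.58 ± 0.16). Pgf, placental growth factor, averaged 14.1 ± 0.202 CPM with caMKL1 and 3.53 ± 0.541 CPM with MKL1, and Pdgfb, which recruits pericytes, had 147, 148 and 144 CPM and 56.6, 56.5 and 48.04 CPM. Angptl4, a lipase inhibitor, had 0.0890, 0.148 and 0.449 CPM with caMKL1, against 7.70, 8.30 and 8.17 CPM with MKL1 and 11.4, 9.86 and 8.47 CPM in control. Angpt1, a ligand of the endothelial receptor Tie2, had 2.27, 1.62 and 1.88 CPM with caMKL1, against 10.7, 11.6 and 11.9 CPM with MKL1 and 4.40, 3.24 and 4.59 CPM in control, so it was highest with the wild-type form. The coreceptor Nrp1 had a log2 ratio of -1.30.

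DNA replication genes fell in both steps in most members. DNA replication genes had 27 lower and 3 higher of 32 with caMKL1 against MKL1 (median log2 ratio -0.45) and 28 lower with MKL1 against control (median -0.27). Uhrf1, which copies DNA methylation at the fork, had 95.5, 96.6 and 99.5 CPM with caMKL1, against 201, 192 and 213 CPM with MKL1 and 271, 279 and 270.2 CPM in control. Rrm2, a subunit of ribonucleotide reductase, had 67.7, 62.3 and 69.9 CPM with caMKL1, against 133, 132 and 142 CPM with MKL1 and 183, 187 and 184 CPM in control. The origin factor Cdc6 and the thymidine kinase Tk1 had log2 ratios of caMKL1 over MKL1 of -0.98 and -0.78. Mitotic genes had 20 lower and 7 higher of 30 (median -0.20). Top2a, the topoisomerase of dividing cells, had 567, 569.8 and 543 CPM with caMKL1, against 889, 882 and 892 CPM with MKL1 and 1139.8, 1227 and 1145 CPM in control. Cdk1, the mitotic kinase, had a log2 ratio of -0.57, and Tpx2, a spindle assembly factor, went up at 0.70.

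G1 regulators had 12 lower and 6 higher of 21. Ccnd1, cyclin D1, had 134, 129.8 and 139 CPM with caMKL1, against 767, 769.6 and 787 CPM with MKL1 and 891, 879 and 883 CPM in control (log2 ratio -2.53 ± 0.030, adjusted p = 9.88e-27). The inhibitor Cdkn1a, p21, fell too, with 5.03, 4.91 and 4.12 CPM with caMKL1, against 10.1, 10.1 and 11.4 CPM with MKL1 and 18.8, 18.8 and 18.9 CPM in control. Among p53 target genes, of which Cdkn1a is one, 14 were higher and 5 lower of 19. Of the 18 that pass the filter without the caMKL1 libraries 13 were higher and 5 lower. The activity of p53 itself was not measured, and a place in this list does not show that p53 moved a gene. Pmaip1, the cell death factor NOXA, had 633 counts with caMKL1 against 3 with MKL1, a ratio of 199 with a counting interval of 67.6 to 965, and none in control. It passed the filter only through the caMKL1 libraries, so its rise was in part fixed by the filter. Fas, a death receptor, had 38.98, 38.8 and 38.7 CPM with caMKL1, against 12.4, 12.8 and 11.6 CPM with MKL1 and 8.37, 8.57 and 7.95 CPM in control. Gadd45a, Phlda3 and Zmat3 had log2 ratios of 1.30, 1.00 and 0.74. Ribosomal protein genes had 26 lower and 3 higher of 35 with caMKL1 (median -0.18), after 35 of 35 lower with MKL1 against control. Rpl13a had the largest fall among them, with 18.5, 17.7 and 19.1 CPM with caMKL1, against 35.2, 35.3 and 36.6 CPM with MKL1 and 49.9, 47.7 and 47.6 CPM in control, and processed copies of ribosomal genes make such counts uncertain.

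Keratins, the intermediate filaments of epithelia, had 9 of 11 higher (median log2 ratio 1.23), or 8 of the 10 that pass the filter without the caMKL1 libraries (median 1.12), after 9 higher with MKL1 against control. Krt20 had 26.2, 24.5 and 24.3 CPM with caMKL1, against 1.78, 1.33 and 1.83 CPM with MKL1 and 0.153, 0.225 and 0.264 CPM in control. Krt16, a keratin of wounded skin, had 29.8, 31.6 and 33.1 CPM with caMKL1, against 2.52, 2.50 and 2.06 CPM with MKL1 and 0.459, 0.610 and 0.414 CPM in control. Krt14 and Krt19 had log2 ratios of 2.05 and 1.75, and Krt7, Krt8, Krt18 and Krt80 0.87, 0.87, 0.42 and 1.37. Krt17, a keratin of wounded and basal epithelium, had 18.9, 22.9 and 23.99 CPM with caMKL1, against 22.5, 23.4 and 24.7 CPM with MKL1 and 2.33, 2.25 and 2.11 CPM in control. Krt17 was thus raised by the wild-type form (log2 ratio over control 3.40, adjusted p = 1.97e-17), and no further change was called (log2 ratio -0.098, adjusted p = 0.272), except a fall with library totals (adjusted p = 0.0172). Krt13 averaged 0.840 CPM with caMKL1 and 0.362 CPM with MKL1 (adjusted p = 0.00811, or 0.0526 without caMKL1 replicate 2), and Krt10 did not pass the test (log2 ratio 0.013).

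Epithelial junction genes had 14 higher and 10 lower of 28. Epcam, an epithelial adhesion molecule, had 71.5, 68.1 and 75.7 CPM with caMKL1, against 166, 179.7 and 187 CPM with MKL1 and 219.7, 209 and 222 CPM in control. Esrp1, a splicing factor of epithelial cells, had 92.1, 96.1 and 99.2 CPM with caMKL1, against 21.3, 21.7 and 21.2 CPM with MKL1 and 30.7, 30.5 and 30.6 CPM in control, and claudin 7 (Cldn7) had 37.5, 40.3 and 43.3 CPM with caMKL1, against 13.1, 14.1 and 13.2 CPM with MKL1 and 25.6, 23.6 and 25.2 CPM in control. Both were lowest with the wild-type form. Occludin (Ocln) had a log2 ratio of -1.25 and the desmosomal plakophilin Pkp2 one of 1.28. Mesenchymal genes and factors of epithelial-mesenchymal transition had 8 lower and 1 higher of 12 (median log2 ratio -0.65), where MKL1 over control had 8 higher. Axl, a receptor tyrosine kinase, had 466, 483 and 485 CPM with caMKL1, against 1173, 1170.0 and 1181 CPM with MKL1 and 1089, 1022 and 1025 CPM in control. Twist1, a factor that can repress E-cadherin, had 10.6, 13.3 and 11.5 CPM with caMKL1, against 23.4, 24.7 and 23.5 CPM with MKL1 and 19.5, 17.5 and 20.3 CPM in control. Zeb2 rose (log2 ratio 0.44).

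**Figure D5:**
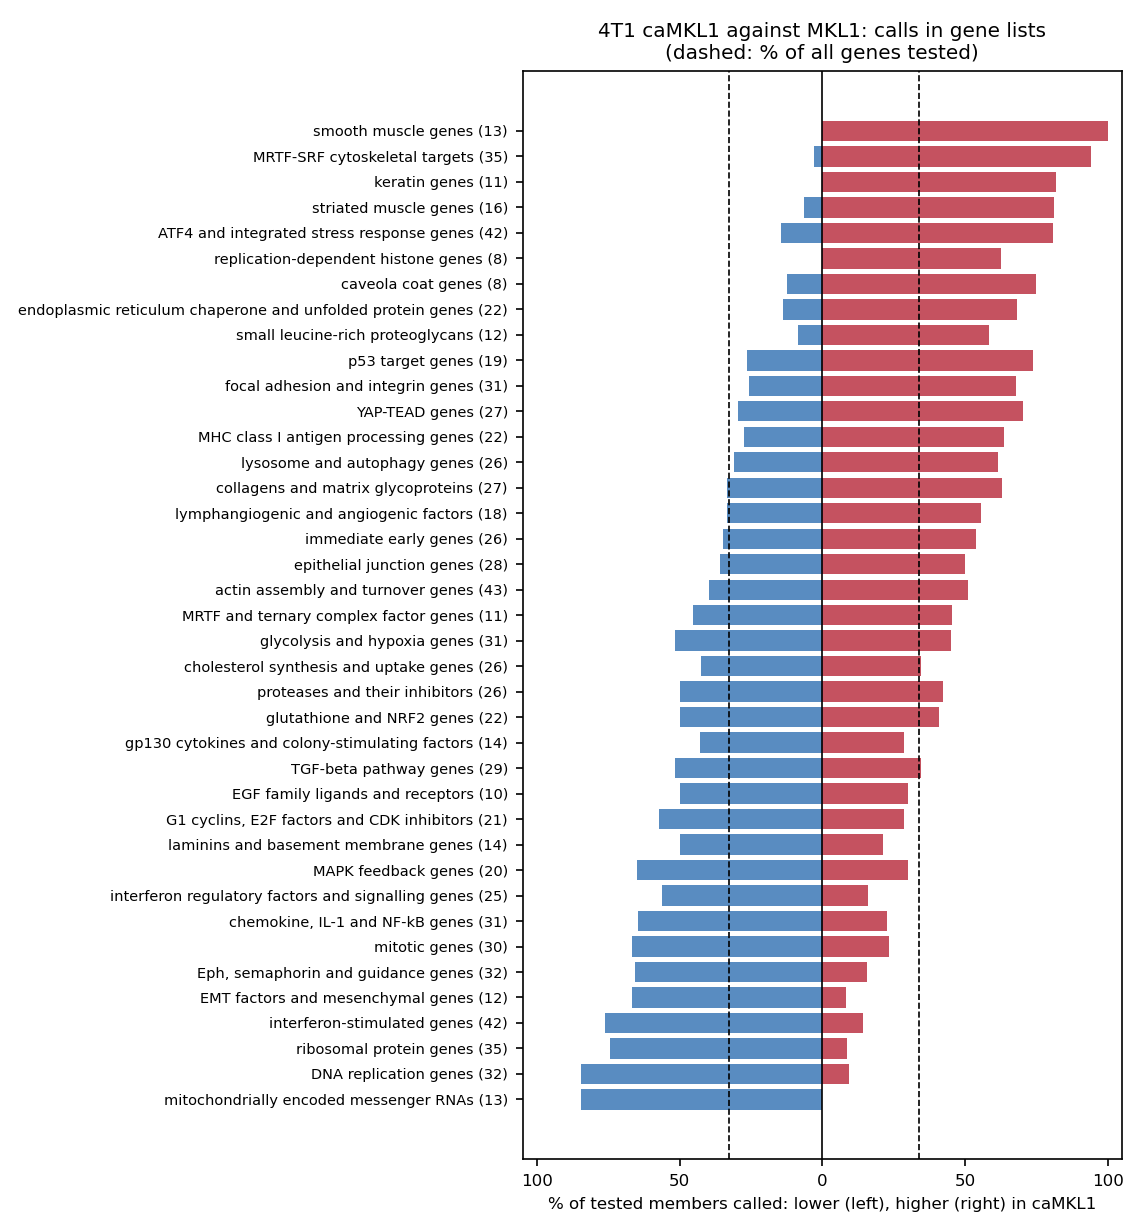
Share of the tested members of each gene list (number tested in parentheses) that were called higher (red, right) or lower (blue, left) in 4T1 caMKL1 than in MKL1 libraries at an adjusted p under 0.05. Dashed lines mark the shares over all 16297 genes tested, 33.8% higher and 32.8% lower. Counts include members that passed the filter through the caMKL1 libraries alone. Smooth muscle genes, MRTF-SRF targets and keratins stand at the top, and mitochondrially encoded messenger RNAs and DNA replication genes at the bottom.

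The same contrast in LM2 cells, a lung-seeking derivative of the human MDA-MB-231 line, was set beside this one in a fit to 18 libraries with genes matched by symbol. The difference of the log2 ratios of caMKL1 over MKL1, 4T1 minus LM2, passed the test in 7810 of 13113 genes (59.6%). For Mrtfa it was -2.32 ± 0.15 (adjusted p = 2.76e-11): in LM2 the caMKL1 libraries had 209, 315 and 275 CPM and the MKL1 libraries 186, 209.6 and 163 CPM, with 1 caMKL1 library inside the MKL1 range. The LM2 log2 ratio was 0.52 (adjusted p = 0.000237), of the opposite sign to that in 4T1, and the part of the Mrtfa level in any difference between the lines was not tested. Srf rose in both lines, by log2 ratios of 0.72 in 4T1 and 1.37 in LM2 in that fit.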

How the data were processed

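Per the file headers, the authors counted read pairs per gene name with featureCounts 2.0.1 on exons of Ensembl release 102 (GRCm38), from STAR alignments (STAR version: not given in the sources used here). Deposited values are raw counts, and the headers show no strand or multi-mapping option, so antisense, overlapping and near-identical genes are uncertain. The submitters' processing notes also list DESeq2. Here edgeR 4.0.16 (R 4.3.3) was fitted to the 9 libraries of 4T1 cells with 1 mean per group, TMM scaling and a filter for a minimum count of 10, which left 16297 of 55367 gene names. Calls are quasi-likelihood tests with an adjusted p under 0.05 (Benjamini-Hochberg over all tested genes), and a 2-fold call also needs an absolute log2 ratio of 1. The common biological coefficient of variation was 0.034. Folds against a group without counts use a floor of 3 counts over the group, and ratios on 1 to 3 counts carry exact 95% intervals, both covering counting error only. Alternatives were DESeq2 1.42.0, limma 3.58.1 voom, other scalings and filters, a replicate block and leaving out each library. Named are Mrtfa, Mrtfb, Srf, Prelp, Edn2, Ifi44 and Chac1, the 12 largest rises and falls among called genes with a mean of at least 5 CPM and no overlap between groups (unnamed clones left out), up to 6 called members of each list with the largest changes at a mean of at least 1 CPM, every member of short lists, and regulators, ligands or receptors of a described pathway. Some named members are not reported here. The members and the 45 gene lists were chosen with earlier results of these data known. The comparison with LM2 used 18 libraries and 16749 symbols found in both tables.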

Additional observations from a re-analysis of the deposited data

Results flagged for a closer look

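The log2 ratio of caMKL1 over MKL1 differed between 4T1 and LM2 cells in an interaction test (edgeR quasi-likelihood test over 18 libraries, adjusted p over 13113 genes) for 7 genes described above. Each difference is 4T1 minus LM2. For Mrtfa it was -2.32 (adjusted p = 2.76e-11), with a log2 ratio of -1.81 in 4T1 and 0.52 in LM2. For Mrtfb it was 1.14 (adjusted p = 1.95e-08): LM2 cells had 25.1, 23.6 and 25.7 CPM with caMKL1 and 51.6, 65.6 and 68.8 CPM with MKL1. For Srf it was -0.65 (adjusted p = 4.2e-05), and LM2 cells had 191, 166 and 160.3 CPM with caMKL1 and 75.2, 61.2 and 63.9 CPM with MKL1. With library totals the difference for Srf was -0.34 and did not pass the test (adjusted p = 0.0586).

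Prelp differed by 4.85 (adjusted p = 0.0217), at LM2 levels of 1.75, 0.690 and 1.29 CPM with caMKL1 and 0, 0.151 and 0 CPM with MKL1. The call depends on 1 library, since without LM2 MKL1 replicate 2 the difference was 1.79 (adjusted p = 0.829). Edn2 differed by 7.35 (adjusted p = 2.37e-05), and its LM2 levels of 0.368, 0.0575 and 0.0613 CPM with caMKL1 and 0.113, 0.1005 and 0.0331 CPM with MKL1 overlapped. Ifi44 differed by -1.69 (adjusted p = 5.95e-08), with a log2 ratio of -0.57 in LM2, so it was lower with caMKL1 in both lines. Chac1 differed by 1.02 (adjusted p = 0.0245), at LM2 levels of 2.53, 2.87 and 1.04 CPM with caMKL1 and 2.15, 1.21 and 0.629 CPM with MKL1. The Chac1 difference did not pass the test with voom quality weights (0.96, adjusted p = 0.208), without LM2 MKL1 replicate 1 (0.45, adjusted p = 0.364) or without LM2 caMKL1 replicate 3 (0.77, adjusted p = 0.063).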

How the results depend on the processing

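The 10858 calls between caMKL1 and MKL1 became 9343 to 11579 under other tools, scalings and filters, and 10293 to 11086 when each library was left out in turn. With a minimum count of 50, the calls of at least 2-fold were 1078 higher and 656 lower in place of 1809 and 1141, by construction on fewer genes. With library totals as the scaling, 3868 genes were lower with MKL1 than in control in place of 2449; the cause was not tested. The fit with the replicate block gave 11125 calls. Same-numbered libraries of different groups correlated at -0.037 to 0.216 in their deviations from group means, and differently numbered ones at -0.141 to 0.080. The 3 pairs of replicate 3 libraries had 0.1248, 0.146 and 0.216, above all differently numbered pairs. The other 6 same-numbered pairs lay under 0.1, and not every library correlated best with its own number (control 1 did with caMKL1 2), so the numbers were not taken as pairs. Of 289 named genes under all alternatives, 4837 of 4888 values kept their direction and side of the threshold. Of the rest, 20 lost the call and 9 gained one. Another 22 changed sign with no call in either fit, and 0 changed sign with a call in either fit. Many of the named genes were picked for calls with large changes in the same libraries, which favours such stability. Calls lost under some setting were those of Elk4, Egfr, Krt13, mt-Nd3, mt-Co1, mt-Atp8 and Col1a2, and calls gained those of Scai, Krt17, mt-Nd1 and Epgn. With 3 libraries a group, depth limits genes near the filter, whose few counts leave wide ratios.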

Other observations

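Lysosome and autophagy genes had 16 higher and 8 lower of 26 tested with caMKL1 against MKL1 (median log2 ratio 0.25). Mitf, a factor of lysosome and pigment cell genes, had 5.38, 4.39 and 4.86 CPM with caMKL1, against 9.53, 11.1 and 11.3 CPM with MKL1 and 9.56, 11.5 and 13.1 CPM in control. Gpnmb, a glycoprotein of lysosomes and melanosomes, had 8.28, 9.0004 and 9.18 CPM with caMKL1, against 17.7, 19.2 and 21.3 CPM with MKL1 and 4.97, 4.30 and 4.37 CPM in control. The cathepsins Ctsb and Ctsh, lysosomal proteases, had log2 ratios of 1.49 and -1.08.

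Genes of Eph, semaphorin and other guidance signals had 21 lower and 5 higher of 32. Sema3c, a secreted guidance ligand, had 39.6, 38.03 and 40.4 CPM with caMKL1, against 2.57, 2.05 and 2.97 CPM with MKL1 and 0.497, 0.514 and 0.301 CPM in control, and Robo1, a receptor of Slit proteins, had 0.489, 0.553 and 0.571 CPM with caMKL1, against 1.96, 1.57 and 2.88 CPM with MKL1 and 5.58, 5.33 and 6.44 CPM in control. Cholesterol synthesis and uptake genes had 9 higher (34.6%, where all genes had 33.8%) and 11 lower (42.3%, where all genes had 32.8%) of 26, among them the exporter Abca1 at a log2 ratio of 2.94. Glycolysis and hypoxia genes had 14 higher and 16 lower of 31. Adm, the vasodilator peptide adrenomedullin, had 8.19, 8.08 and 8.81 CPM with caMKL1, against 3.65, 3.95 and 2.56 CPM with MKL1 and 2.68, 2.54 and 1.39 CPM in control, while Car12, a carbonic anhydrase, had 21.1, 18.9 and 19.6 CPM with caMKL1, against 57.4, 55.6 and 51.2 CPM with MKL1 and 74.2, 79.6 and 75.8 CPM in control. Mitochondrially encoded messenger RNAs had 11 of 13 lower (median log2 ratio -0.34), or 9 to 12 of them under the alternatives. The calls of mt-Co1, mt-Nd3 and mt-Atp8 were lost in 6, 5 and 1 of the alternatives, and mt-Nd1, which had no call, gained one in 6. Of these genes mt-Co1 had a log2 ratio of -0.072 and mt-Nd1 one of -0.096. Replication-dependent histone genes had 5 of 8 higher, or 2 to 6 under the alternatives. Of the 7 that pass the filter without the caMKL1 libraries 4 were higher, and H2bc8 passed only through them. The whole list had a summed level of 46.85 to 52.15 CPM with caMKL1, 19.6 to 24.2 CPM with MKL1 and 12.8 to 17.1 CPM in control. PolyA RNA was sequenced, so these levels are no measure of histone transcripts without a polyA tail.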
